A study of Medicago sativa with 15 samples.

Results

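Among the genes expressed in control roots of alfalfa (Medicago sativa), 14 were at or near 0 counts in every root library taken under alkaline stress. They were chosen by their measured values: a level of at least 5 CPM (counts per 1000000 counts of the library) in each of the 3 control libraries, and at most 5 counts summed over the 12 stressed libraries. Of the 164632 gene IDs in the deposited tables, 19200 reached 5 CPM in each control library, and 14 of these (0.0729%) met both conditions. Since the choice was made on the contrast of stressed with control roots, that these genes were lower in stressed roots is a description, and no test of it is given.

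The roots came from alfalfa seedlings, and alfalfa is a tetraploid, outcrossing forage legume. Stressed roots had been exposed to NaHCO3 at 50 mmol/L for 4, 8, 12 or 24 h, and control roots were kept under normal conditions, with 3 libraries in each of the 5 groups. No cultivar, plant age or number of plants per library is stated in the labels, and the control carries no sampling time, so time under stress and time of sampling cannot be told apart. No group received sodium without bicarbonate. Nothing says that the 3 libraries of a group came from separate plants, so the spread between them may be technical.

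Bicarbonate raises the pH around the root and buffers it there, which lowers the solubility of iron, phosphate and other nutrients, while the sodium that comes with it adds an ionic load. Roots under such stress are known to change proton pumping, organic acid release, nutrient uptake and growth. A gene whose transcript is present in every control root and almost absent from every stressed one is the extreme of a lower level, and in a tetraploid with several copies of most genes such a transcript can be 1 copy of a family whose other copies behave alike or differently.

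Gene IDs come without names in the deposited tables. A RefSeq list of alfalfa genes (Bolivia_mono assembly) held none of them, 0 of 164632. No function, position or sequence is therefore given for any of the 14, the root label could not be checked against marker genes, and the genes are described by ID, by coding length and by their levels. In bulk roots, fewer cells of a type and less RNA per cell cannot be told apart. The number of reads in a library was between 6863315 and 15180708. In each stressed group 1 library (replicate 2 at 4 h, replicate 3 at 8 h, replicate 1 at 12 h and at 24 h) lay between the other 2 of its group at 72.1% to 79.3% of genes with at least 300 counts over the group, against 23.1% to 38.8% for the control libraries and 9.81% to 14.5% for the other stressed libraries, and whether these 4 are independent of the others was not tested. These 4 were also the shallowest libraries, at 6863315 to 7621064 reads, against 11266060 to 15180708 for the others. They held 7 of the 36 counts of the 14 genes in stressed roots, a number to be read with that lower depth. Without them the same limits chose 15 genes, the 14 among them.

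The genes with the highest control levels had no count or a handful of counts in stressed roots. MS.gene040116 (387 nt) had no count in any of the 12 stressed libraries, against 90.2, 63.1 and 11.1 CPM in control replicates 1, 2 and 3, or 1286, 852 and 125 counts. With 137922509 reads over the stressed libraries, a count of 0 allows a level of up to 0.0218 CPM (3 counts). Against the controls pooled, its level was thus at least 2665-fold lower in stressed roots. That bound covers counting error only, and the control libraries themselves spread 8.13-fold. MS.gene044939 (414 nt) had 5 counts in stressed roots, 1, 2 and 2 in 8 h replicates 1, 2 and 3 and none elsewhere, against 54.5, 40.3 and 25.6 CPM in the control libraries. The ratio of pooled levels was 1138-fold lower in stressed roots (exact 95% Poisson interval 487 to 3511, counting error only).

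MS.gene74092 and MS.gene74088 came next among the short genes and have the same length of 411 nt. MS.gene74092 had 1 count in 12 h replicate 1 and 2 in 12 h replicate 2, with none in the other stressed libraries, against 38.6, 37.8 and 7.28 CPM in the control libraries. MS.gene74088 had no count in any stressed library, against 31.3, 24.9 and 6.92 CPM in control roots. Against the controls pooled, its level was at least 1015-fold lower under stress, a bound that covers counting error only. In both, control replicate 3 lay far below the other 2 control libraries, and no stressed library came near it. Their counts in the control libraries differed by more than counting error. Between them in level stood MS.gene012412 (885 nt), with 2 counts in 24 h replicate 3 and 1 each in 8 h replicates 2 and 3, against 20.5, 49.3 and 8.43 CPM in control roots. Its coefficient of variation over the control libraries, 0.804, was the highest of the 14.

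**Figure D1:**
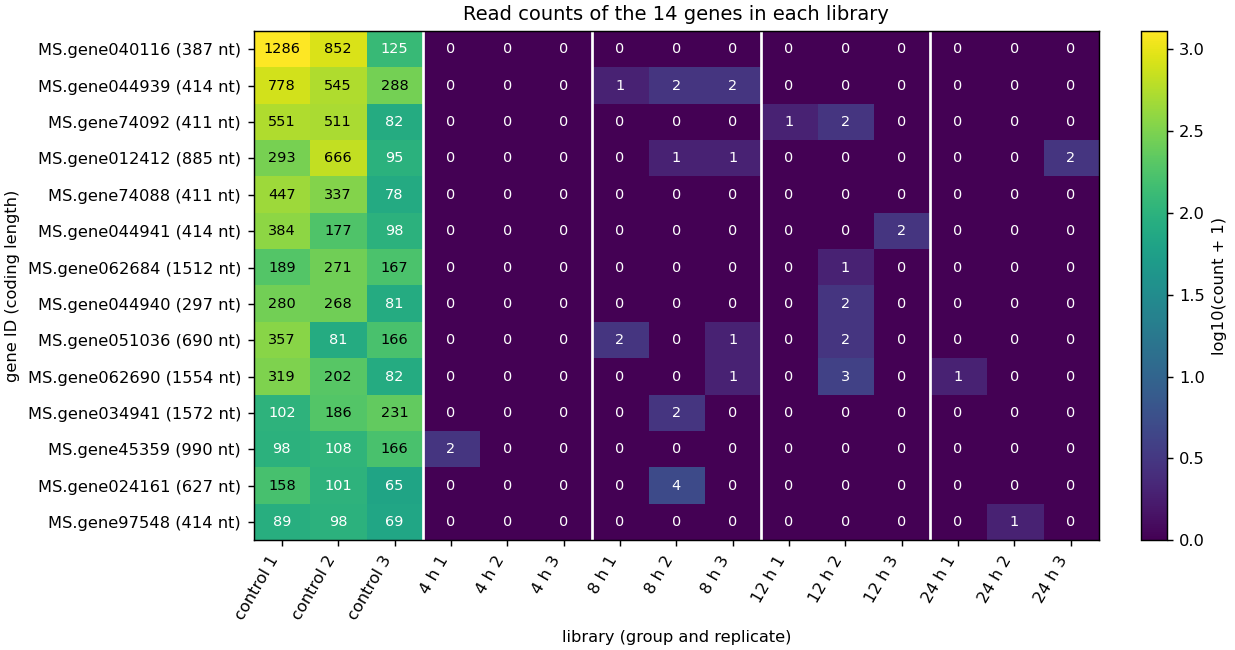
Read counts of the 14 genes (rows, by mean control CPM) in the 15 libraries (columns, by group and replicate); the colour is log10(count + 1) and the number in each cell is the count. Every control cell holds 65 counts or more and no stressed cell holds more than 4.

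The 5 genes next in level lay between 14.9 and 16.2 CPM on average in the controls. MS.gene044941 (414 nt) had 2 counts in stressed roots, both in 12 h replicate 3, against 26.9, 13.1 and 8.70 CPM in control replicates 1, 2 and 3. MS.gene044940 (297 nt, the shortest) also had 2, both in 12 h replicate 2, against 19.6, 19.8 and 7.19 CPM in control roots. MS.gene062684 (1512 nt) had a single count, in 12 h replicate 2, against 13.3, 20.1 and 14.8 CPM in control roots. The last was among the steadier of the 14 across controls, with a coefficient of variation of 0.222. MS.gene051036 (690 nt) had 5 counts, 2 in 8 h replicate 1, 1 in 8 h replicate 3 and 2 in 12 h replicate 2, against 25.03, 5.996 and 14.7 CPM in control roots. MS.gene062690 (1554 nt) had 5, with 3 in 12 h replicate 2 and 1 each in 8 h replicate 3 and 24 h replicate 1, against 22.4, 14.95 and 7.28 CPM in control roots. For these last 2 genes the pooled level was 427-fold (exact 95% Poisson interval 182 to 1319) and 426-fold (182 to 1317) lower in stressed roots, and only MS.gene024161 had a smaller difference.

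At the low end were the 4 remaining genes. MS.gene034941 (1572 nt, the longest) had 2 counts in stressed roots, both in 8 h replicate 2, against 7.15, 13.8 and 20.5 CPM in the control libraries. MS.gene45359 (990 nt) had the only counts of the 14 genes at 4 h, 2 in replicate 1, against 6.87, 7.99 and 14.7 CPM in control roots. These are the 2 genes that were highest in control replicate 3. MS.gene024161 (627 nt) had 4 counts, all in 8 h replicate 2, against 11.1, 7.48 and 5.77 CPM in control roots, a pooled level 286-fold lower in stressed roots (exact 95% Poisson interval 111 to 1057), the smallest difference of the 14. MS.gene97548 (414 nt) had 1 count, in 24 h replicate 2, against 6.24, 7.25 and 6.12 CPM in control roots, with the lowest coefficient of variation of the 14, 0.0950. Over the 12 genes with any count in stressed roots the pooled level was 286-fold to 2215-fold lower there. The limits of the choice set a large part of these folds.

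Compared per length, as the deposited FPKM (counts per kilobase of gene, scaled to library size), the order of the genes in control roots shifted towards the short ones. Control roots held 142 ± 104 FPKM of MS.gene040116, 97.0 ± 35.0 of MS.gene044939, 67.9 ± 43.5 of MS.gene74092, 52.4 ± 24.4 of MS.gene044940 and 51.3 ± 30.8 of MS.gene74088 (mean ± SD, n = 3). The 4 longest genes were the lowest, with 8.78 ± 4.25 for MS.gene034941, 9.57 ± 4.85 for MS.gene062690, 9.97 ± 4.30 for MS.gene45359 and 10.6 ± 2.36 for MS.gene062684. In each of the 13 pairs of neighbours in this order the control libraries overlapped. Taken library by library, MS.gene044939 lay above MS.gene74092 in all 3 controls. Each remaining pair was reversed in some control library, so the order of those neighbours is within the spread.

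**Figure D2:**
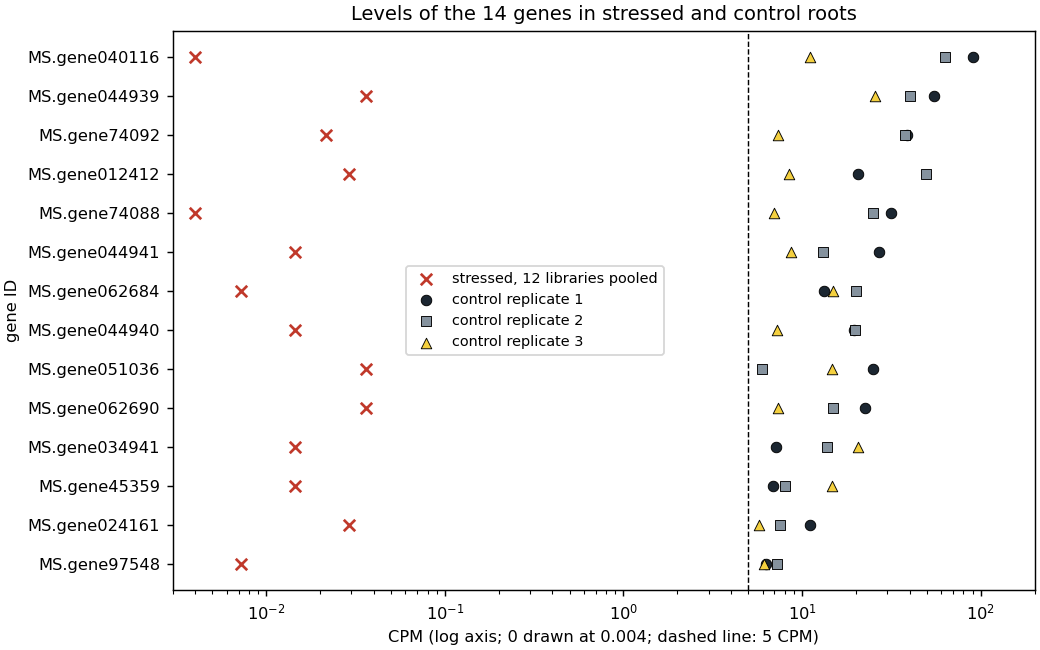
CPM of the 14 genes on a log axis: the 12 stressed libraries pooled (crosses; 0 drawn at the left) and each control library (symbols by replicate). The pooled stressed levels lie at or below 0.0363 CPM and the control levels at or above 5.77 CPM, and control replicate 3 is the lowest control library for 10 of the 14 genes.

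Coding length was not part of the choice. The 14 genes had a median length of 520.5 nt (297 to 1572 nt), against 1131 nt for the other 19186 genes with at least 5 CPM in each control library. A cut was set at the commonest length of the 14 themselves, 414 nt, which favours a high share among them. A length of 414 nt or less was found for 7 of the 14 (50%) and for 8.75% of the others. Of these 7, 5 were 411 or 414 nt long. MS.gene044939, MS.gene044940 and MS.gene044941 have neighbouring ID numbers, as do MS.gene74088 and MS.gene74092, so the 7 need not be separate cases. The median moved with the limits: it was 792 nt without control replicate 2 and 414 to 690 nt without any other single library, 816 nt with a limit of 2 CPM, 723 nt with a mean of 5 CPM over the controls, and 399 nt with 0 stressed counts. With the limit set in FPKM, which divides by length and so admits shorter genes, 28 genes were chosen, 12 of the 14 among them, with a median of 414 nt.

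The control libraries agreed less on the 14 genes than on other genes held to the same lower limit. The median coefficient of variation over the 3 control libraries was 0.496, against 0.298 for the other genes, and it was above 0.5 in 7 of the 14 (50%) and in 17.2% of the others. Control replicate 3 was the lowest for 10 of the 14 genes (71.4%), against 39.4% of the others, and 7 of the 14 were ordered replicate 1 above 2 above 3, against 18.8% of the others. MS.gene74088 and MS.gene74092, which have neighbouring ID numbers, are in both groups of 7, so the 14 need not be separate cases. Summed over the 14 genes, control replicates 1, 2 and 3 held 374, 326 and 159 CPM. The limit of 5 CPM was thus met most narrowly in control replicate 3: without it, 38 genes met the rule and their median coefficient of variation over the remaining pair of controls was 0.222. Without control replicate 1 or 2 there were 16 and 20, with medians of 0.405 and 0.479 over the remaining pair. Medians over a pair of libraries and over these longer lists are not like the 0.496 over 3 libraries. Dropping a library can only add genes, so all 14 were kept each time.

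The few counts left in stressed roots were unevenly spread over time. Of the 36, 2 came from 4 h, 17 from 8 h, 13 from 12 h and 4 from 24 h, while these groups held 25.2%, 26.4%, 23.4% and 24.97% of the stressed reads. Single libraries carried most of them: 12 h replicate 2 had 10, over 5 genes, and 8 h replicate 2 had 9, over 4 genes. No gene had a count at all 4 times. Because the choice allows at most 5 counts per gene, these numbers say little about any 1 gene, and no order of the times is drawn from them.

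The limits cut through a continuous tail. Just inside the limit on the controls were MS.gene024161 and MS.gene051036, with lowest control levels of 5.77 and 5.996 CPM, and just outside were MS.gene74086 (3 counts in stressed roots, against 11.1, 7.92 and 4.26 CPM in control roots) and MS.gene54192 (0 counts in stressed roots, against 10.2, 6.88 and 4.26 CPM in control roots). On the side of the stressed libraries, MS.gene044939, MS.gene051036 and MS.gene062690 had 5 counts, and just outside stood MS.gene044934 with 6 and MS.gene062685 and MS.gene81503 with 7 each. In all, 16 genes with 5 CPM in each control had 6 to 10 counts over the stressed libraries, these 3 among them. The median gene of the 19200 had 2394 counts there, and 15393 had over 1000.

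The same limits were also set for each time alone. A list for a single time cannot be shorter than the 14, since the 5 counts are allowed over 3 libraries in place of 12. At most 5 counts over the 3 libraries of a time, with at least 5 CPM in each control, was met by 291 genes at 4 h (1.52% of the 19200), 198 at 8 h (1.03%), 120 at 12 h (0.625%) and 203 at 24 h (1.06%), and the 14 are in each of these lists by construction. Of the 551 genes in any of the lists, 374 were in 1 list, 111 in 2, 48 in 3 and 18 in all 4. The 18 are the 14 and 4 more with 6 to 10 counts in all. The lists share the 3 control libraries. Without control replicate 3 the numbers were 508, 336, 226 and 328; without 4 h replicate 1 there were 483 at 4 h, without 8 h replicates 1 and 2 there were 312 and 327 at 8 h, without 12 h replicates 2 and 3 there were 234 and 206 at 12 h, and without 24 h replicate 2 there were 329 at 24 h.

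The opposite pattern, at least 5 CPM in each library of a time and at most 5 counts over the 3 controls, was rarer. It was met by 16 genes at 4 h (0.0984% of the genes with 5 CPM in each library there), 12 at 8 h (0.0680%), 24 at 12 h (0.136%) and 68 at 24 h (0.368%), and by 0 genes at all 4 times. Both directions are held to the same limits with 3 libraries on each side. The sides differ in depth, with 39038586 reads over the controls and 32264604 to 36417270 over the libraries of a time. The genes that reached 5 CPM in each library numbered 16264, 17652, 17665 and 18475 at these times, against 19200 in the controls, so the gap in shares is close to that in numbers. Without any 1 control or any 1 stressed library outside the 4 named above, the numbers were 27 to 62 at 4 h, 29 to 56 at 8 h, 37 to 77 at 12 h and 105 to 122 at 24 h, in each case below the number of the other direction. Relative to the full number, the largest such rise was greater at each time than in the other direction.

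**Figure D3:**
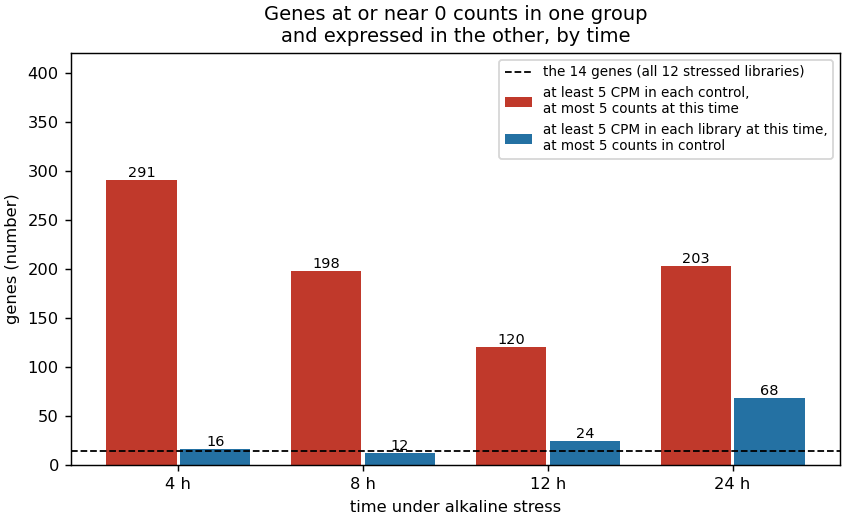
Number of genes at each time (x axis) with at least 5 CPM in each control and at most 5 counts at that time (red), and with the groups exchanged (blue); the dashed line marks the 14 genes that hold over all 12 stressed libraries. At each time the red bar is the higher, with 291 against 16 at 4 h and 203 against 68 at 24 h.

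Many of the 14 have IDs with neighbouring numbers. MS.gene044939, MS.gene044940 and MS.gene044941 are consecutive, MS.gene74088 and MS.gene74092 are 4 apart, and MS.gene062684 and MS.gene062690 are 6 apart, so 7 of the 14 genes fall in 3 runs and the other 7 stand alone. A run joins genes up to 20 numbers apart. The share of other expressed genes with an ID this close to another was not counted, so no excess is read from the 7. Whether ID numbers follow position on a chromosome is not given in the sources used here. IDs within 10 numbers of one of the 14 were therefore examined as a group of genes that the rule had not chosen. This was done after the values had been seen. Of the 208 such IDs, 101 had a mean control level of at least 1 CPM. Their stressed level (mean CPM over 12 libraries) was at most 0.1 of the control level (mean over 3) in 33 of the 101 (32.7%), against 4.24% of the 53397 genes elsewhere with the same minimum. The median ratio was 0.388 for the 101 and 0.886 elsewhere. Within 5 numbers the share was 49.1% and within 20 it was 21.8%.

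Length separated these nearby IDs. All 16 that matched the length of one of the 14 in their run within 3 nt were at or below 0.1 of control, with a median ratio of 0.00386 and a highest of 0.0296. Of the 85 of other length, 17 (20%) were. Of these 17, 13 belonged to a single run, that of MS.gene062684 and MS.gene062690, in which all 16 nearby IDs with the minimum level were low. Outside that run it was 4 of 72 (5.56%), a share near that of genes elsewhere. In the 5 runs with no matching ID at that level (those of MS.gene012412, MS.gene034941, MS.gene040116, MS.gene051036 and MS.gene45359), 2 of 46 nearby IDs were low (4.35%). Both were near MS.gene040116, where 2 of 11 were low. The median ratio of its nearby IDs was 0.269, against 0.914 to 2.47 in the others of these runs. MS.gene044940 (297 nt) and MS.gene062690 (1554 nt) also had no nearby ID of their own length at that level, and the matches in their runs are to the other chosen genes there. Whether IDs of the same length are copies that share reads was not tested, since no sequence is given for them, and reads that match several copies may have been divided among them.

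**Figure D4:**
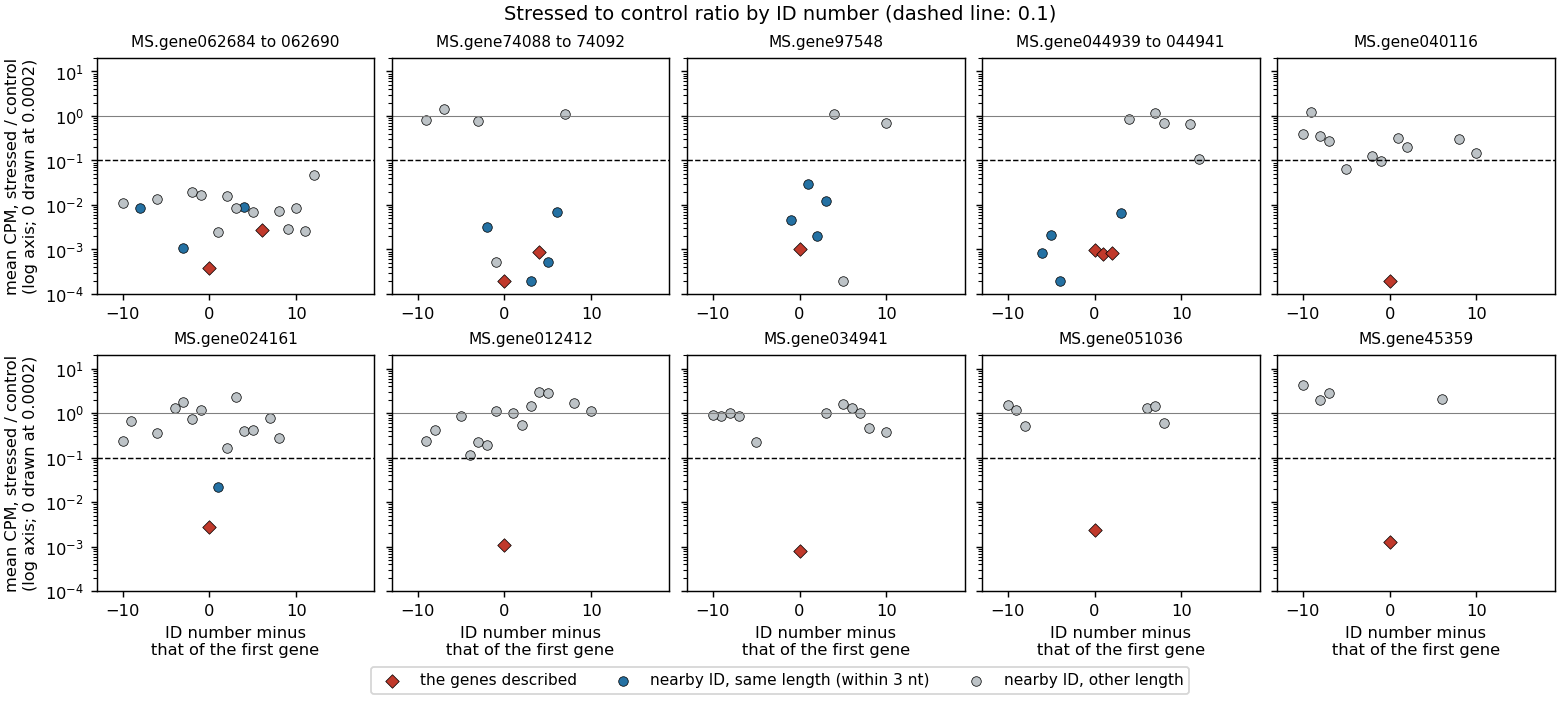
Ratio of mean stressed CPM to mean control CPM (log axis; 0 drawn near the bottom) against ID number, counted from the first of the 14 genes in each of 10 runs; red diamonds are the 14 genes, blue points nearby IDs of the same length within 3 nt, grey points nearby IDs of other lengths with at least 1 CPM in control. All 16 blue points lie below the dashed line at 0.1, and 68 of the 72 grey points outside the panel of MS.gene062684 lie above it.

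Around MS.gene044939 to MS.gene044941, 4 further IDs with a mean control level of at least 1 CPM were 414 nt long. MS.gene044933 had 8 counts over the stressed libraries, against 97.4, 63.1 and 18.1 CPM in control replicates 1, 2 and 3. MS.gene044934 had 6, against 44.4, 29.4 and 5.77 CPM in control roots, and MS.gene044942 had 51, against 68.7, 45.9 and 43.0 CPM in control roots. MS.gene044935, at 2.31, 1.41 and 0.444 CPM in control roots, had none. The 4 summed to at most 1.58 CPM in any stressed library, in 8 h replicate 2, against 213, 140 and 67.3 CPM in control replicates 1, 2 and 3. Control replicate 3 was again the lowest, as it was for the 3 chosen genes of this run.

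Near MS.gene74088 and MS.gene74092, another 4 IDs of 414 nt with that minimum level summed to 0 CPM in every 4 h library, to 0, 1.12 and 0.131 CPM at 8 h, to 0.583, 0.227 and 0.901 CPM at 12 h and to 0, 0.160 and 0 CPM at 24 h, against 87.7, 52.1 and 24.5 CPM in the control libraries. Near MS.gene97548 the 4 IDs of 414 nt with that level reached at most 1.38 CPM in a stressed library, against 63.9, 54.3 and 42.8 CPM in the control libraries. The last run holds MS.gene97547, with 25 counts over the stressed libraries, against 36.2, 36.6 and 35.9 CPM in control roots. Among all genes of 411 to 414 nt away from the runs, 35 of 214 were at or below 0.1 of control (16.4%), against 4.24% of genes of any length elsewhere. A like share was found away from the runs at the length of MS.gene062684, 10 of 68 at 1512 nt (14.7%), and at the commonest length among its nearby IDs, 8 of 51 at 1671 nt (15.7%).

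Near MS.gene062684 the 3 IDs of like length summed to 0.381, 0.279 and 1.24 CPM at 4 h, to 0, 0.527 and 0.394 CPM at 8 h, to 2.19, 4.24 and 1.07 CPM at 12 h and to 4.12, 5.20 and 2.93 CPM at 24 h, against 244, 200 and 213 CPM in control roots. Every 24 h library lay above every 4 h and 8 h library, and the 12 h libraries overlapped with 4 h and 24 h. In this run the summed control levels were close to one another, unlike those near MS.gene044939 and MS.gene74088. Near MS.gene97548 they lay between these cases, at 63.9, 54.3 and 42.8 CPM. MS.gene062676 (1512 nt) alone had 171 counts over the stressed libraries, against 185, 127 and 125 CPM in the control libraries. MS.gene024162 has the 627 nt of MS.gene024161 and the next number. Its mean stressed level was 0.0220 of control, against 0.00271 for MS.gene024161. It lay at 0 to 1.37 CPM at 4 h, 0.294 to 4.74 CPM at 8 h, 0.983 to 5.08 CPM at 12 h and 0.550 to 0.960 CPM at 24 h, against 110, 85.6 and 47.2 CPM in control roots.

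**Figure D5:**
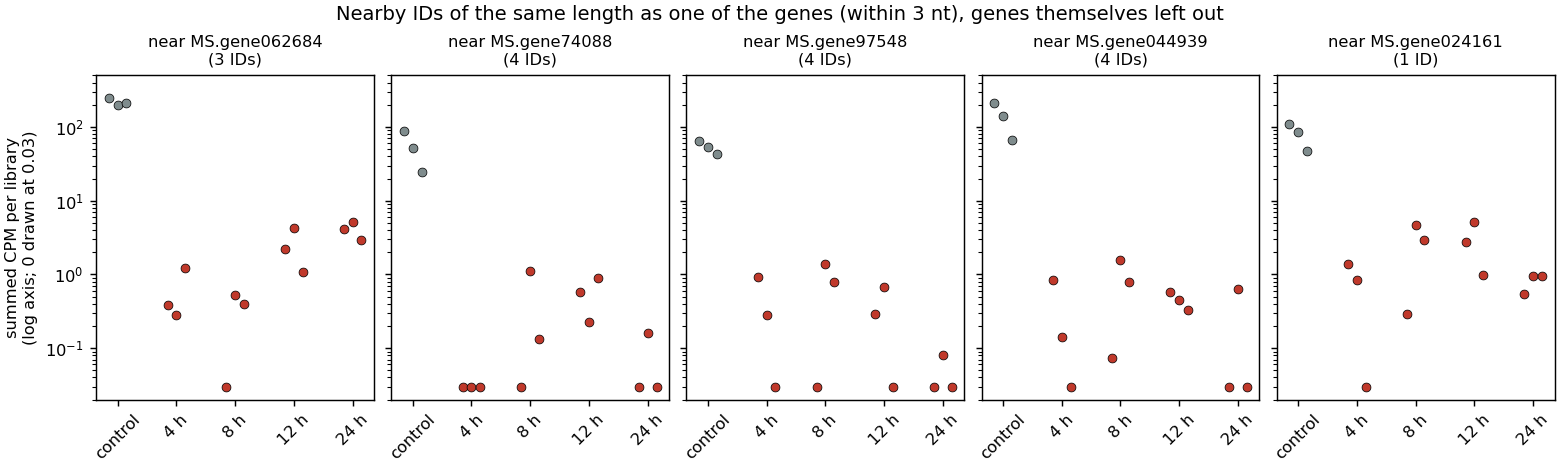
Summed CPM (log axis; 0 drawn near the bottom) of the nearby IDs that share the length of one of the 14 genes within 3 nt, in each of the 15 libraries (points, 3 per group in replicate order), for the 5 runs that have such IDs; the 14 genes are left out. In each panel the 3 control libraries lie far above the 12 stressed ones, and near MS.gene062684 the 24 h libraries, at 2.93 to 5.20 CPM, lie above those of 4 h and 8 h.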

How the data were processed

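Per the labels' protocols, total RNA from a column kit went into SMARTer mRNA libraries. The authors deposited raw read counts per gene ID, whose totals per library are 6863315 to 15180708, and FPKM values for the same IDs. For the aligner, the counter, the strand setting, the build and reads matching several copies, the entry is: not given in the sources used here. Gene lengths were computed from deposited counts and FPKM; 96.0% divide by 3, hence the words coding length. Groups came from the sample titles, since the treatment field of the controls also reads stress.

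The 14 genes, their limits and the lists were chosen with earlier results of these data known, and the ID window and length match after the values were seen. No test of stressed against control roots was run, because the choice used that contrast. Control counts of equal-length pairs were set against counting error alone, with a chi-square limit at 95%. Folds compare pooled counts, with a floor of 3 counts over the 12 stressed libraries and exact Poisson intervals at 95%. Intervals and floors reflect counting error alone: the reads carry no molecular identifiers and need not be independent molecules. The rule was checked on simulated counts with counting error only, in which the genes set to be off lay well inside both limits. The rule for naming took the highest, the most and least variable, the longest and shortest genes, those next to the limits and the most alike pairs of equal length; MS.gene45359 was added so that all 14 are named. Alternatives used TMM (edgeR 4.0.16) and DESeq2 1.42.0 size factors in R 4.3.3, other limits, the deposited FPKM, and fewer libraries; the rest was done in Python 3.11.15.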

Additional observations from a re-analysis of the deposited data

How the results depend on the processing

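Counting alike IDs of the same length as 1 merged nothing, since 0 of the 4 equal-length pairs were alike within counting error. The number of genes stayed at 14 with TMM or DESeq2 scaling, and was 16 with a limit of 0.05 CPM on the stressed mean. It followed the limits themselves: 52 with 2 CPM in each control (median control level 5.47 CPM), 3 with 10 CPM (40.2 CPM), 52 with a mean of 5 CPM over the controls (7.99 CPM, median coefficient of variation 0.732), 30 with at most 12 stressed counts, 28 with FPKM (7.94 CPM) and 2 with 0 stressed counts (100% without a count, 37.9 CPM, coefficient of variation 0.667, length 399 nt, 100% highest in control replicate 1). Leaving out each library in turn gave 14 to 38 genes and a median coefficient of variation of 0.222 to 0.510; no library other than control replicate 3 moved the number by over 1.5 times. The share highest in control replicate 1 (57.1%) was 55.6% to 70.0%, and the share of nearby IDs that were low was 31.7% to 33.7%, and 49.1% and 21.8% with windows of 5 and 20.

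Genes near 0 at 4, 8, 12 and 24 h numbered 885, 557, 349 and 566 with 2 CPM, 107, 77, 41 and 86 with 10 CPM and 190, 99, 42 and 102 with 0 counts; the opposite pattern gave 80, 79, 75 and 195, then 2, 5, 11 and 34, then 6, 5, 15 and 35. Leaving out 1 library gave 309 to 508, 213 to 336, 139 to 234 and 218 to 329, and for the opposite pattern 19 to 62, 15 to 56, 24 to 77 and 72 to 122. Without the 4 intermediate libraries these were 309, 213, 139 and 218, and 19, 15, 24 and 72. No paired analysis was possible because the results come from no test. At 5 CPM a gene rests on 56.3 to 71.3 counts per control library, so depth limits the control values little and the stressed values to 3 counts in all.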
